A study of Arabidopsis thaliana with 18 samples.

Results

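In exon skipping (ES), an exon is kept in some transcripts of a gene and spliced out of others, and with mutually exclusive exons (MXE) a transcript carries either one exon or another. The genes with such events were taken from the deposited table of splicing events in the shoot apical meristem (SAM)-enriched tissue of *Arabidopsis thaliana*. Every gene with at least 1 ES or MXE event was kept together with all of its listed events, after a set of flowering, clock, splicing-factor and other genes had been left out by name. No limit on PSI was used for this, but the choice was made with earlier results of these data known. This gave 30 of the 334 listed genes and 43 of the 399 listed events: 32 ES events, 1 MXE event and 10 events of other types. The table holds an ES or MXE event in 37 genes, and the 7 genes left out carried 8 of the 41. The 33 ES and MXE events are called exon events below. Among the 30 genes, 24 had 1 listed event, 6 had several, and 3 of these had 2 exon events.

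The study compared *sdg8-2* and *sdg26-1*, knock-out lines in the histone methyltransferase genes *SDG8* and *SDG26* in the Col-0 background, with Col-0 itself as the wild type (WT). All plants grew in short days, with 8 h of light and 16 h of dark, at 16 °C for 5 weeks, and plants of each genotype were then either given 1 day at 25 °C or left at 16 °C. Each of the 6 combinations had 3 samples, 18 in all, and each sample pooled the tissue of about 10 plants, with the SAM and leaves at early stages. Every mutant was represented by 1 line, whose whole plants carried the mutation.

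The values are percent spliced-in (PSI) on a scale from 0 to 1, which states how much of the RNA of an event has the form set as spliced-in. The authors merged the 3 replicates of a condition, so each event has 1 value per genotype and temperature, with 2 decimals, no replicate error and an unknown read depth. No test over samples was therefore possible. Changes are given as PSI at 25 °C minus PSI at 16 °C, and a change or difference of at least 0.1 was counted. Beside each PSI pair, the table gives the yes or no call of the authors for differential splicing (DiS) between the temperatures. By the paper, a call required a minimum of isoform-specific reads and PSI differences smaller within than between conditions. It also required a minimum weight of evidence (Bayes factor). All 399 listed events were called in at least 1 genotype, so the calls chose the list and are used here only as labels. Neither *SDG8* nor *SDG26* has a listed event, and the table holds no expression levels, so neither the mutations nor the tissue could be checked against marker genes. In such bulk tissue, fewer cells of a type and less RNA per cell cannot be told apart.

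A whole exon is skipped when the spliceosome joins the exons on either side of it, and splicing factors bound to the exon or to the introns around it help to set the choice. Skipping an exon whose length is a multiple of 3 keeps the reading frame, whereas skipping any other coding exon shifts it and often brings in an early stop codon that can send the transcript to decay. In plants, intron retention (IR) is the more common form of alternative splicing and exon skipping is a minor one. SDG8 and SDG26 place methyl groups on lysine 36 of histone H3, a mark of transcribed gene bodies that has been tied to the choice of splice sites.

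The table names the gene and the type of an event but not its position. All 30 genes were found in the RefSeq annotation of the TAIR10.1 assembly, and in 27 of the 27 genes with coding coordinates in the table these were the same there. In 18 of the 30 genes, an annotated transcript held an internal exon that another skipped, 31 exons in all, and in 9 genes there was exactly 1 such exon. The other 12 genes had none, although their ES event is listed from the transcripts assembled for the study. The annotated exons are thus candidates for the measured events and no more. Their length ran between 6 and 713 nt with a median of 65 nt, against 75 nt over the 1037 skipped exons of the whole annotation. Of the 31, 14 (45.2%) were a multiple of 3 in length, against 55.5% over the annotation, and among the 14 that lie in coding sequence 9 were (64.3%, against 77.2%). Forms of an exon with different ends were counted as separate exons, here and over the annotation. The 4 counted in AT2G23985 are overlapping forms, none a multiple of 3. All 31 followed an AG and 30 were followed by GT, the usual splice-site bases. The last 20 bases of the intron before them held a median of 55% C or T, the same as over all annotated skipped exons. The genes had a median of 4.0 annotated transcripts, against 3 in the other listed genes and 1.0 in protein-coding genes.

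A selection of the candidate exons in coding sequence is shown, and for none of them is it known that the listed event concerns that exon. Capitals mark the exon and lower case the intron on both sides, read 5′ to 3′ on the strand of the gene, which is the reverse strand in each. The AT5G22620 exon lies at chr5:7518569-7518634 and has a shorter form, chr5:7518596-7518634, that ends at an earlier donor site and is followed by GC. The *BSH* exon lies at chr3:6018268-6018306, the AT5G18230 exon at chr5:6026595-6026600, the AT2G14520 exon at chr2:6184251-6184327 and the AT3G24360 exon at chr3:8842175-8842239. AT5G20450 has a pair of skipped exons of 132 nt, at chr5:6912228-6912359 and chr5:6912004-6912135.
AT5G22620 exon of 66 nt: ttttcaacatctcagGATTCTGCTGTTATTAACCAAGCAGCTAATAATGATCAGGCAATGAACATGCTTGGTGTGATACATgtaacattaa
AT5G22620 exon of 39 nt: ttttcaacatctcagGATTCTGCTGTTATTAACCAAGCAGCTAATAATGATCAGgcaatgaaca
BSH exon of 39 nt: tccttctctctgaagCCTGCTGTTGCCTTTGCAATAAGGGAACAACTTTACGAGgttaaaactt
AT5G18230 exon of 6 nt: atgcagTGGAATgtgagcagaa
AT2G14520 exon of 77 nt: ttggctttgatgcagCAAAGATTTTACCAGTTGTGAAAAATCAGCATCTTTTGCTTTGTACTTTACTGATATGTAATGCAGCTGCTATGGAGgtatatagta
AT3G24360 exon of 65 nt: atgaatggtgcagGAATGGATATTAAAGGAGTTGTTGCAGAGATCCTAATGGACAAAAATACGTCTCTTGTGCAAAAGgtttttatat
AT5G20450 first exon of 132 nt: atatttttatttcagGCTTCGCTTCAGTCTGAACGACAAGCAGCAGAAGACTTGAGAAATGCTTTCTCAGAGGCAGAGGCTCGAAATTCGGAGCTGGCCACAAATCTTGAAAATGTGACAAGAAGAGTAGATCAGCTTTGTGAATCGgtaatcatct
AT5G20450 second exon of 132 nt: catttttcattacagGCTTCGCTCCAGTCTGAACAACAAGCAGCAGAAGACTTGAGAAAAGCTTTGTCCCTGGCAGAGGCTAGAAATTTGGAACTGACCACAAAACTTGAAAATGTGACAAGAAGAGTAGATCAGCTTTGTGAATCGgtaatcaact
The printed AT5G22620, *BSH*, AT5G18230 and AT5G20450 exons keep the reading frame when skipped, and that of AT2G14520 does not. AT3G24360, the gene of the MXE event, has a further annotated skipped exon of 53 nt at chr3:8841906-8841958, which is not printed because it, or the intron beside it, overlaps an untranslated region of another transcript. Neither its length nor that of the printed exon of 65 nt is a multiple of 3, and the table does not say which exons the MXE event exchanges. The exons of the AT5G20450 pair are equal at 120 of 132 bases (90.9%), and the gene has another annotated skipped exon, of 42 nt, at chr5:6912770-6912811. Which of these the ES event of the gene concerns is not given, and whether reads were split between the near-identical exons was not tested.

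In 27 of 33 exon events (81.8%, against 80.7% of all listed events) PSI differed between the temperatures by at least 0.1 in some genotype. In each genotype somewhat more exon events had higher than lower PSI at 25 °C. In *sdg8-2*, 20 of the 33 (60.6%) had a change of at least 0.1, against 56.1% of all listed events. In *sdg26-1* the count was 21 (63.6%, against 59.6%), and in WT it was 19 (57.6%, against 51.1%). Absolute changes had a median of 0.12 in *sdg8-2*, 0.14 in *sdg26-1* and 0.11 in WT, beside 0.11, 0.11 and 0.1 over all listed events. The share of exon events that changed was thus close to that of the whole table in each genotype.

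By direction, a larger share of exon events than of the whole table had higher PSI at 25 °C, in each genotype. PSI was higher at 25 °C by at least 0.1 in 11 exon events of *sdg8-2* (33.3%, against 24.3% of all listed events), 13 of *sdg26-1* (39.4%, against 24.8%) and 12 of WT (36.4%, against 23.3%). It was lower by at least 0.1 in 9 events of *sdg8-2* (27.3%, against 31.8%), 8 of *sdg26-1* (24.2%, against 34.8%) and 7 of WT (21.2%, against 27.8%). Listed IR events had higher PSI in 17.4% of *sdg8-2*, 20% of *sdg26-1* and 23.9% of WT, and lower PSI in 32.9%, 40.6% and 26.5% in the same order. Events with alternative 3′ splice sites (A3) had 25.4%, 23.8% and 20.8% higher and 34.6%, 34.6% and 33.8% lower. Those with alternative 5′ splice sites (A5) had 32.9%, 30.1% and 20.5% higher and 27.4%, 28.8% and 24.7% lower. They were the nearest to the exon events in *sdg8-2* and *sdg26-1*. In WT, however, A5 events had the smallest share of higher PSI of these types. The form set as spliced-in is not given and may differ between types, so higher PSI need not mean the same in each. Counting a change of any size, PSI was higher at 25 °C in 18 of the 33 exon events in *sdg8-2* (54.5%, against 42.6%), 20 in *sdg26-1* (60.6%, against 43.1%) and 20 in WT (60.6%, against 44.1%). Without the exon events listed under *AAE18*, which may belong to a neighbouring gene (below), 31 events remained. Those higher and lower by at least 0.1 then numbered 9 and 9 in *sdg8-2*, 11 and 8 in *sdg26-1*, and 10 and 7 in WT. Higher by any size were 51.6%, 58.1% and 58.1% in the same order. Of the 8 exon events in the genes left out by choice, 3 (37.5%) had higher PSI at 25 °C in each genotype. Of these 3, 1 has the same 6 values as an exon event listed under *AAE18*, so the 8 are not fully separate from the 33. These shares describe the listed events and were not tested, since events are not replicates.

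**Figure D1:**
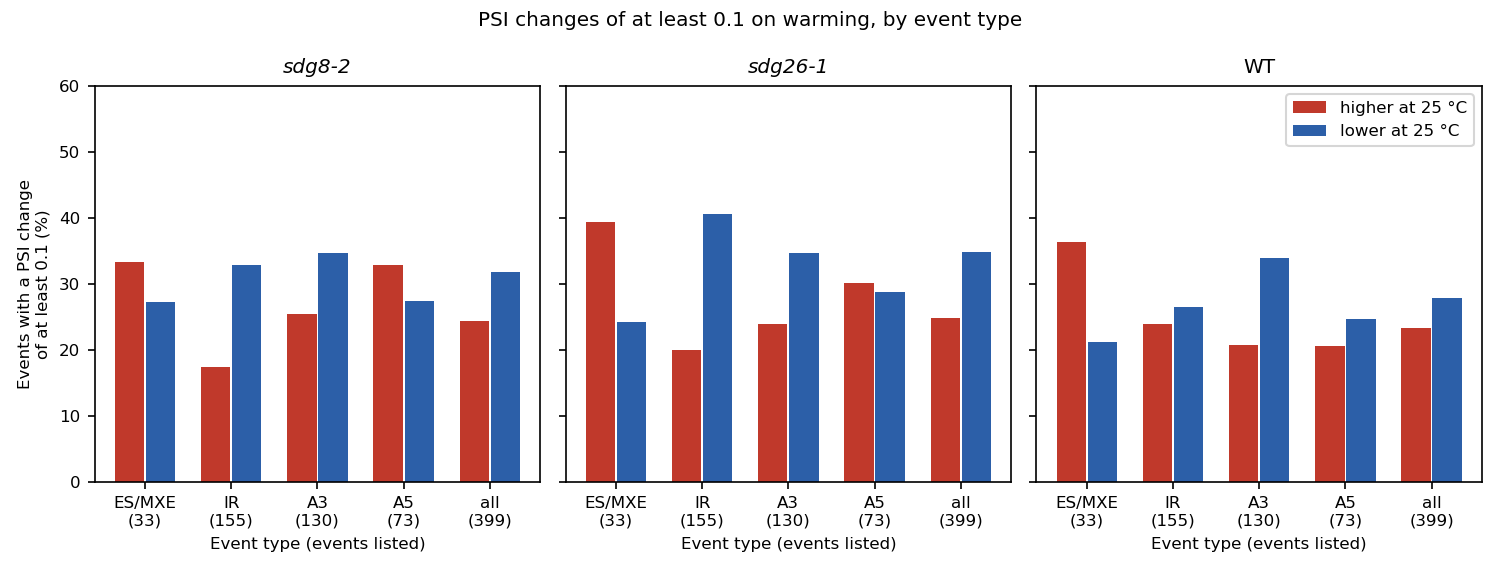
Share of listed events (percent, bars on the vertical axis) with PSI higher or lower at 25 °C than at 16 °C by at least 0.1, for the 33 exon events, 155 IR, 130 A3 and 73 A5 events and all 399 listed events in *sdg8-2*, *sdg26-1* and WT. Exon events had the larger share of higher PSI in *sdg26-1* and WT (39.4% and 36.4%), and IR events had the smaller share of higher PSI in *sdg8-2* and *sdg26-1* (17.4% and 20%).

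The genotypes mostly moved the same way. In 29 of the 33 exon events (87.9%, against 84% of all listed events) the change had the same sign in all genotypes, with PSI higher at 25 °C in 17 (51.5%, against 36.1%) and lower in 12 (36.4%, against 47.9%). The exceptions were AT3G11880, AT3G51075, AT4G06701 and AT5G59610. In 13 events (39.4%, against 31.6%) the change was at least 0.1 in every genotype, and in 6 (18.2%, against 19.3%) in none. By the calls, 26 events were called in exactly 1 genotype, 6 in 2 and only that of AT5G22620 in all 3. The same counts were not made over all listed events, so few shared calls are not read as a trait of exon events. A call depends on limits to reads, replicate agreement and weight of evidence, and a sign does not, so the sharing of calls and of signs is not compared. In *sdg8-2*, 13 exon events were called (39.4%, against 38.6% of all listed events), in *sdg26-1* 18 (54.5%, against 53.9%) and in WT 10 (30.3%, against 32.3%).

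**Figure D2:**
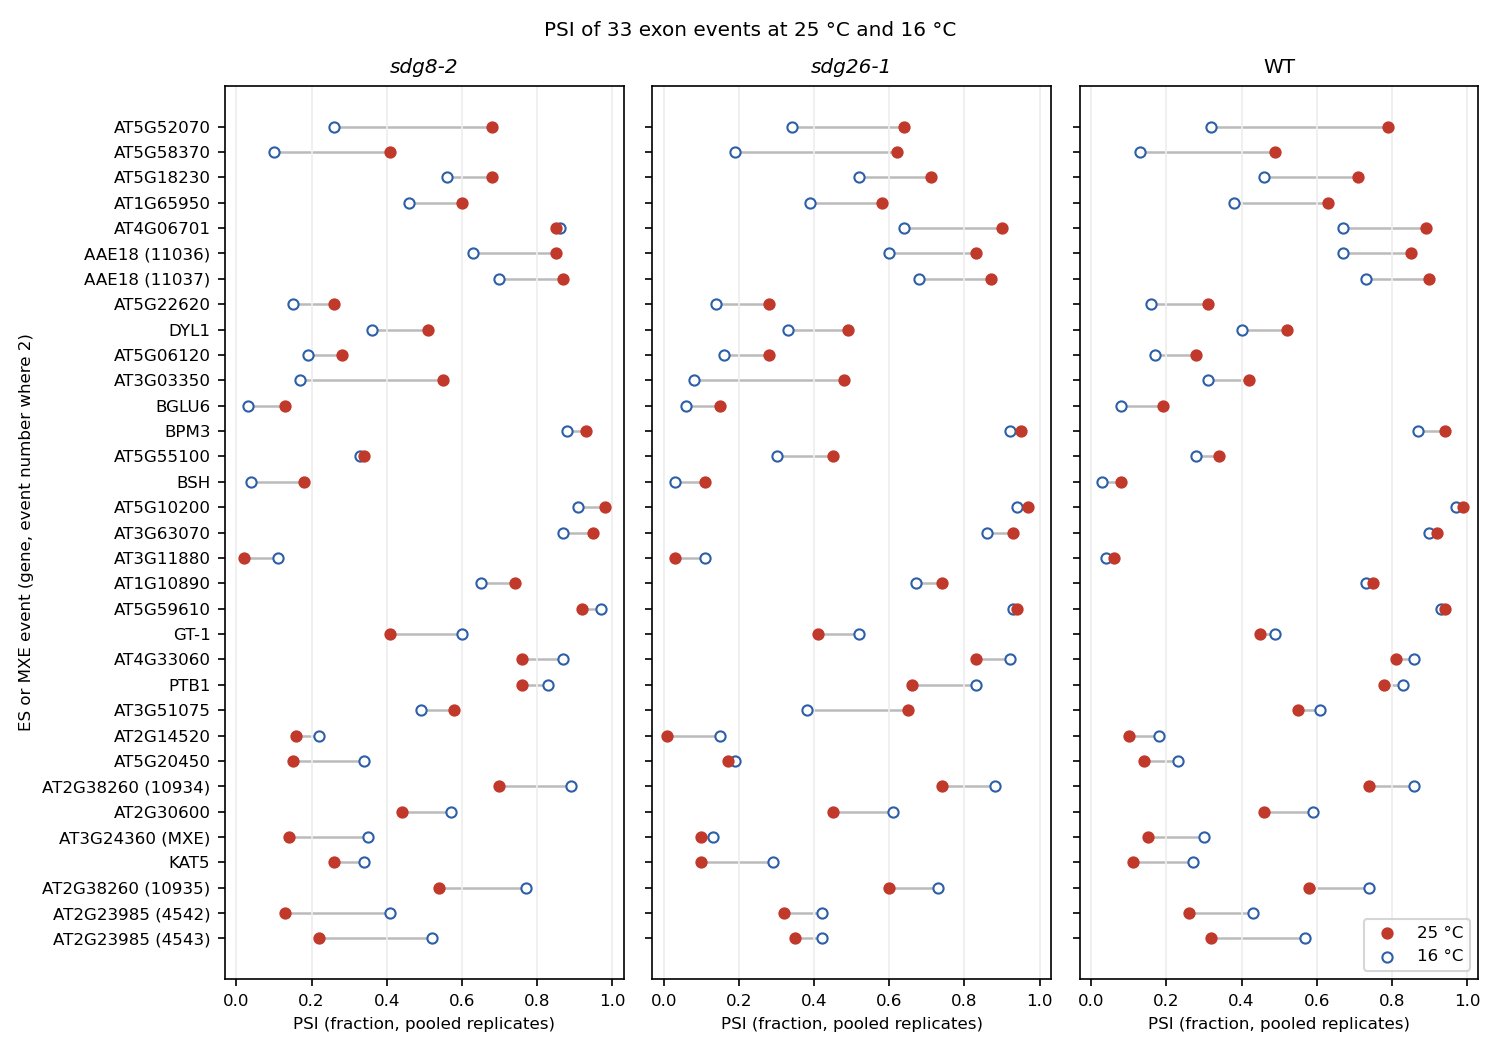
PSI (0 to 1, horizontal axis) of each of the 33 exon events at 25 °C and at 16 °C in *sdg8-2*, *sdg26-1* and WT, 1 pooled value per point and without error bars. Values spread over nearly the whole scale, between 0.01 and 0.99, and the longest line is that of AT5G52070 in WT, at 0.79 and 0.32.

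Exon events with high, middle and low PSI were all present. At 25 °C the median PSI was 0.54 in *sdg8-2* (lowest 0.02, highest 0.98), 0.58 in *sdg26-1* (0.01 and 0.97) and 0.52 in WT (0.06 and 0.99). At 16 °C it was 0.49 in *sdg8-2* (0.03 and 0.97), 0.42 in *sdg26-1* (0.03 and 0.94) and 0.46 in WT (0.03 and 0.97). The sources do not say which form of an event was set as spliced-in, so a higher PSI is not read here as more inclusion of the exon.

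Genes grouped under metabolism and organelles, the largest of the groups formed by gene role, held the most exon events with higher PSI at 25 °C. The groups were formed with earlier results of these data known. Several genes of this group are annotated only by protein family, among them AT1G65950, AT5G58370 and AT5G59610. The counts are thus not read as a trait of the role. Of their 10 events in 9 genes, 7 were higher and 1 lower by at least 0.1 in *sdg8-2* (against 24.3% and 31.8% of all listed events), 6 and 1 in *sdg26-1* (24.8% and 34.8%), and 7 and 2 in WT (23.3% and 27.8%). The median change was 0.125 in *sdg8-2*, 0.165 in *sdg26-1* and 0.13 in WT, against −0.03, −0.05 and −0.03 over all listed events. These counts and medians include both exon events listed under *AAE18*, which may belong to a neighbouring gene (below). Both were higher by at least 0.1 in each genotype.
The event of AT5G22620, a phosphoglycerate mutase family gene with candidate exons printed above, was the 1 exon event called in all genotypes. PSI stood at 0.26 at 25 °C and 0.15 at 16 °C in *sdg8-2*, 0.28 and 0.14 in *sdg26-1*, and 0.31 and 0.16 in WT. The form set as spliced-in was thus the minor one throughout and rose by 0.11, 0.14 and 0.15.
AT5G58370, annotated as a P-loop nucleotide hydrolase gene, had PSI of 0.41 at 25 °C and 0.1 at 16 °C in *sdg8-2*, where the event was called. The values were 0.62 and 0.19 in *sdg26-1*, without a call, and 0.49 and 0.13 in WT, with one. The uncalled change in *sdg26-1*, 0.43, was the largest toward higher PSI among all 399 listed events in that genotype, so a missing call did not mean a small change. Calls also required enough reads and replicates that differed less than the conditions did. Which requirement was missed here is not given, so the size of an uncalled change is uncertain.
AT3G03350 encodes a Rossmann-fold protein of the kind that binds NAD(P). Its ES event stood at 0.55 and 0.17 in *sdg8-2* (25 °C and 16 °C), 0.48 and 0.08 in *sdg26-1*, and 0.42 and 0.31 in WT, and was called in *sdg26-1* alone. The change was 0.38 in *sdg8-2*, 0.4 in *sdg26-1* and 0.11 in WT, the same direction with a wide spread of sizes.
AT1G65950, annotated as a protein kinase, had 0.6 and 0.46 in *sdg8-2*, 0.58 and 0.39 in *sdg26-1*, where it was called, and 0.63 and 0.38 in WT. *BGLU6*, a beta-glucosidase gene, had low PSI in each genotype: 0.13 and 0.03 in *sdg8-2*, with a call, 0.15 and 0.06 in *sdg26-1*, and 0.19 and 0.08 in WT. Both had higher PSI at 25 °C throughout.
Lower PSI at 25 °C was found for *KAT5* and AT3G24360. *KAT5*, which encodes a peroxisomal thiolase of fatty acid β-oxidation, had 0.26 and 0.34 in *sdg8-2*, 0.1 and 0.29 in *sdg26-1*, and 0.11 and 0.27 in WT, with calls in *sdg26-1* and WT. The MXE event of AT3G24360, a crotonase family gene, had 0.14 and 0.35 in *sdg8-2*, where it was called, 0.1 and 0.13 in *sdg26-1*, and 0.15 and 0.3 in WT. At 16 °C the *sdg26-1* value of this event was thus the lowest of the genotypes, by −0.17 against WT.
AT5G59610, a DnaJ-domain chaperone gene, stayed between 0.92 and 0.97 in all 6 conditions and did not reach a change of 0.1.

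The table lists 4 events under *AAE18*, which encodes an acyl-activating enzyme, and PSI was higher at 25 °C in all of them. The first ES event had 0.85 and 0.63 in *sdg8-2*, 0.83 and 0.6 in *sdg26-1*, and 0.85 and 0.67 in WT, with calls in *sdg26-1* and WT. The second had 0.87 and 0.7 in *sdg8-2*, 0.87 and 0.68 in *sdg26-1*, and 0.9 and 0.73 in WT, with calls in *sdg8-2* and WT. This second event has the same 6 values as an ES event listed under the neighbouring AT1G55310, a gene of an SR splicing factor that shares its assembled locus, so the events of *AAE18* may belong to either gene. Of the IR events, 1 had 0.61 and 0.36 in *sdg8-2*, 0.57 and 0.38 in *sdg26-1*, and 0.67 and 0.37 in WT, and was called in all genotypes. The other had 0.92 and 0.68 in *sdg8-2*, where it was called, 0.85 and 0.73 in *sdg26-1*, and 0.82 and 0.69 in WT. Without *AAE18*, 31 exon events remained, of which 18 in *sdg8-2*, 19 in *sdg26-1* and 17 in WT had a change of at least 0.1.

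Of the 4 genes without a described product, or noncoding, AT2G23985 and AT2G38260 had lower PSI of their exon events at 25 °C in every genotype, and AT3G51075 and AT4G06701 had higher PSI in some. Of the 6 events, 0 were higher and 4 lower by at least 0.1 in *sdg8-2* (against 24.3% and 31.8% of all listed events), 2 and 3 in *sdg26-1* (24.8% and 34.8%), and 1 and 4 in WT (23.3% and 27.8%). The median change was −0.21 in *sdg8-2*, −0.085 in *sdg26-1* and −0.14 in WT, with 4 of the 6 events from the 2 genes of lower PSI.
AT2G23985, an uncharacterized gene with 26 annotated transcripts, had 2 ES events. In the first, PSI was 0.13 at 25 °C and 0.41 at 16 °C in *sdg8-2*, where it was called, 0.32 and 0.42 in *sdg26-1*, and 0.26 and 0.43 in WT. In the second it was 0.22 and 0.52 in *sdg8-2*, 0.35 and 0.42 in *sdg26-1*, and 0.32 and 0.57 in WT, the one genotype with a call. Each event changed least in *sdg26-1* and most in *sdg8-2*, and they share a gene, so they are not independent.
AT2G38260, a transcribed pseudogene, had 5 listed events, the most of any of these genes. Its first ES event had 0.7 and 0.89 in *sdg8-2*, 0.74 and 0.88 in *sdg26-1*, where it was called, and 0.74 and 0.86 in WT. The second had 0.54 and 0.77 in *sdg8-2*, where it was called, 0.6 and 0.73 in *sdg26-1*, and 0.58 and 0.74 in WT. Both thus had lower PSI at 25 °C by at least 0.1 in every genotype.
The A3 event of AT2G38260 also had lower PSI at 25 °C, with 0.43 and 0.7 in *sdg8-2*, 0.49 and 0.65 in *sdg26-1*, and 0.44 and 0.67 in WT. Its A5 event was higher, with 0.5 and 0.27 in *sdg8-2*, 0.46 and 0.3 in *sdg26-1*, and 0.45 and 0.28 in WT. The IR event was higher as well, with 0.64 and 0.35 in *sdg8-2*, 0.6 and 0.39 in *sdg26-1*, and 0.62 and 0.36 in WT. Of the 5 events of this pseudogene, 4 were called in *sdg8-2*, 2 in *sdg26-1* and none in WT, and each changed more in *sdg8-2* than in *sdg26-1*.
The long noncoding RNA AT3G51075 had 0.58 and 0.49 in *sdg8-2*, 0.65 and 0.38 in *sdg26-1*, where it was called, and 0.55 and 0.61 in WT. The change was 0.09 in *sdg8-2* and 0.27 in *sdg26-1*, against −0.06 in WT, the opposite direction. The noncoding RNA AT4G06701 had 0.85 and 0.86 in *sdg8-2*, 0.9 and 0.64 in *sdg26-1*, and 0.89 and 0.67 in WT. It rose by 0.26 in *sdg26-1* and 0.22 in WT by call, and in *sdg8-2* the value at 16 °C lay closer to those of the other genotypes at 25 °C than at 16 °C.

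**Figure D3:**
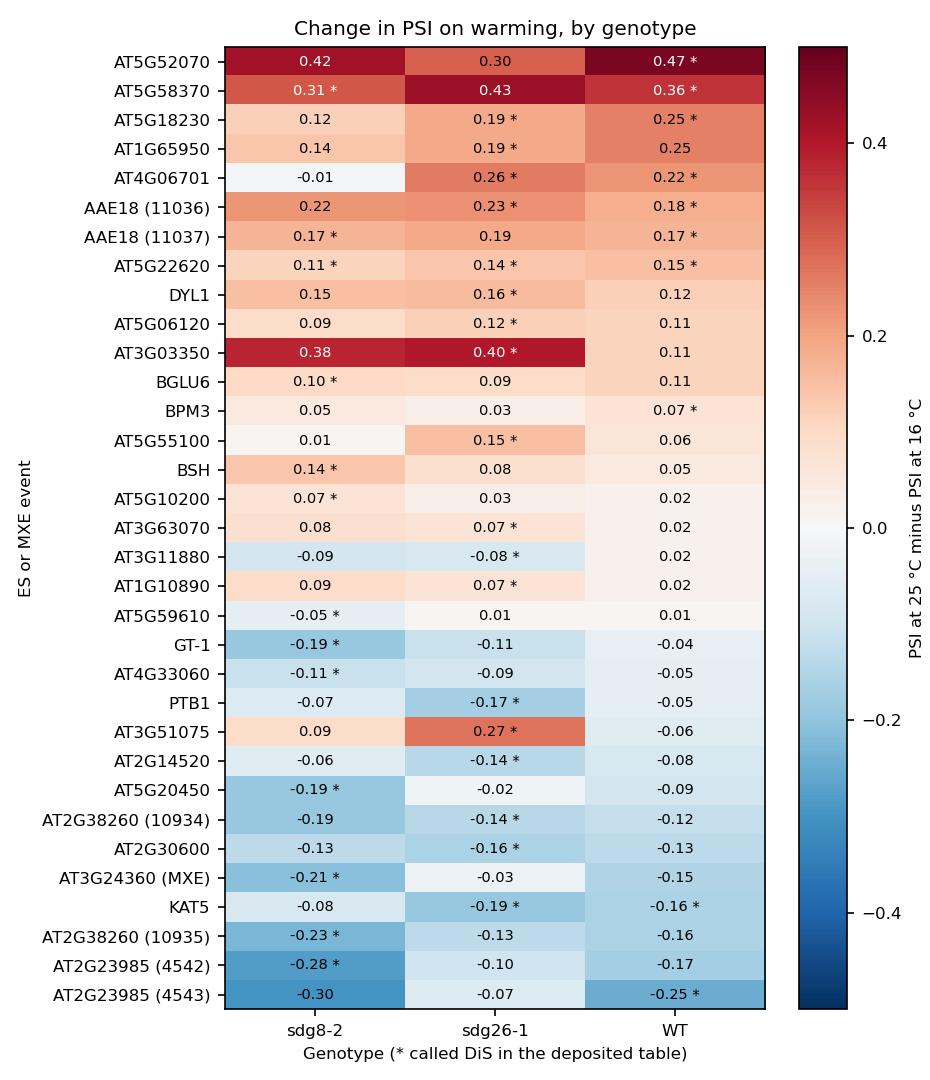
Change in PSI (25 °C minus 16 °C, printed in each cell and given by its colour, red for higher and blue for lower) of the 33 exon events (vertical axis, in order of the change in WT, with event numbers where a gene has several) in *sdg8-2*, *sdg26-1* and WT (horizontal axis), with an asterisk for a call in the deposited table. Rows keep 1 colour across the genotypes in 29 of the 33 events, and AT3G51075 is red in both mutants (0.09 and 0.27) and blue in WT (−0.06).

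Among the 33 exon events, the largest change in WT was in the group of chromatin, transcription and protein turnover genes. Of the 6 events of this group, 2 were higher and 2 lower by at least 0.1 in *sdg8-2* (against 24.3% and 31.8% of all listed events), 1 and 2 in *sdg26-1* (24.8% and 34.8%), and 1 and 1 in WT (23.3% and 27.8%).
AT5G52070 encodes a protein with an Agenet domain, a fold of the Tudor family found in chromatin proteins. PSI was 0.68 at 25 °C and 0.26 at 16 °C in *sdg8-2*, 0.64 and 0.34 in *sdg26-1*, and 0.79 and 0.32 in WT, with a call in WT alone. The change was 0.42 in *sdg8-2*, 0.3 in *sdg26-1* and 0.47 in WT, so the uncalled mutants changed in the same direction. The 1 annotated skipped exon of the gene, chr5:21163579-21163648 on the forward strand, is 70 nt long.
*BSH* encodes the SNF5 subunit of SWI/SNF chromatin remodelling complexes, and a candidate exon of the gene is printed above. PSI was 0.18 and 0.04 in *sdg8-2* (25 °C and 16 °C), where it was called, 0.11 and 0.03 in *sdg26-1*, and 0.08 and 0.03 in WT. The values of all genotypes were close at 16 °C and lay apart at 25 °C, highest in *sdg8-2*.
*GT-1*, a trihelix transcription factor gene, had 0.41 and 0.6 in *sdg8-2*, where it was called, 0.41 and 0.52 in *sdg26-1*, and 0.45 and 0.49 in WT. AT2G30600, which encodes a BTB/POZ domain protein, had 0.44 and 0.57 in *sdg8-2*, 0.45 and 0.61 in *sdg26-1*, where it was called, and 0.46 and 0.59 in WT. Both had lower PSI at 25 °C in each genotype. *BPM3*, whose product joins target proteins to CUL3 ubiquitin ligases, and the Tudor/PWWP/MBT domain gene AT3G63070 had PSI between 0.86 and 0.95 in all conditions and no change of 0.1.

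The genes of RNA processing and binding held 5 exon events, of which *sdg8-2* had 1 higher and 1 lower by at least 0.1 (against 24.3% and 31.8% of all listed events), *sdg26-1* had 2 and 1 (24.8% and 34.8%), and WT had 1 and 0 (23.3% and 27.8%). Calls were given to 1 of the 5 in *sdg8-2*, 4 in *sdg26-1* and 1 in WT, beside 38.6%, 53.9% and 32.3% of all listed events, with most calls in *sdg26-1* in both.
AT5G18230 encodes a NOT2/NOT3/NOT5 family protein, a subunit type of the CCR4-NOT complex that removes poly(A) tails, and its annotated skipped exon of 6 nt is printed above. PSI was 0.68 and 0.56 in *sdg8-2*, 0.71 and 0.52 in *sdg26-1*, and 0.71 and 0.46 in WT, with calls in *sdg26-1* and WT. At 25 °C the genotypes were close, and at 16 °C *sdg8-2* lay above WT by 0.1.
*PTB1*, the gene of a polypyrimidine tract-binding protein that itself regulates exon choice, had 0.76 and 0.83 in *sdg8-2*, 0.66 and 0.83 in *sdg26-1*, where it was called, and 0.78 and 0.83 in WT. All genotypes stood at 0.83 at 16 °C, and *sdg26-1* was lowest at 25 °C. Its annotated skipped exon, chr3:52645-52746 on the forward strand, is 102 nt long.
The cyclophilin-like gene AT4G33060 had 0.76 and 0.87 in *sdg8-2*, where it was called, 0.83 and 0.92 in *sdg26-1*, and 0.81 and 0.86 in WT. AT5G55100, which encodes a protein with the SWAP domain of splicing regulators, had 0.34 and 0.33 in *sdg8-2*, 0.45 and 0.3 in *sdg26-1*, where it was called, and 0.34 and 0.28 in WT. The *sdg26-1* value of AT5G55100 at 25 °C stood apart from the other 5, which lay between 0.28 and 0.34.
AT1G10890, an arginine/glutamate-rich 1 protein gene, had 3 events. The ES event had 0.74 and 0.65 in *sdg8-2*, 0.74 and 0.67 in *sdg26-1*, where it was called, and 0.75 and 0.73 in WT. The A5 event had 0.54 and 0.41 in *sdg8-2*, 0.53 and 0.43 in *sdg26-1*, and 0.54 and 0.45 in WT, with calls in both mutants. PSI of these 2 was higher at 25 °C, whereas the IR event was lower, with 0.39 and 0.5 in *sdg8-2*, where it was called, 0.37 and 0.45 in *sdg26-1*, and 0.38 and 0.45 in WT.

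The remaining 6 genes, of membrane, transport and other roles, had 6 exon events. By at least 0.1, 1 was higher and 1 lower in *sdg8-2* (against 24.3% and 31.8% of all listed events), 2 and 1 in *sdg26-1* (24.8% and 34.8%), and 2 and 0 in WT (23.3% and 27.8%).
*DYL1*, a dormancy-associated gene of the family first known from buds, had 0.51 and 0.36 in *sdg8-2*, 0.49 and 0.33 in *sdg26-1*, where it was called, and 0.52 and 0.4 in WT. Its IR event had 0.08 and 0.14 in *sdg8-2*, 0.12 and 0.18 in *sdg26-1*, where it was called, and 0.11 and 0.16 in WT. The ES event was thus higher and the IR event lower at 25 °C in every genotype.
AT5G20450, annotated as myosin and holding the pair of near-identical exons, had 0.15 and 0.34 in *sdg8-2*, where it was called, 0.17 and 0.19 in *sdg26-1*, and 0.14 and 0.23 in WT. AT2G14520, a CBS domain gene, had 0.16 and 0.22 in *sdg8-2*, 0.01 and 0.15 in *sdg26-1*, where it was called, and 0.1 and 0.18 in WT. Both had lower PSI at 25 °C throughout, by at least 0.1 in 1 genotype each.
AT5G06120, an ARM repeat gene, had 0.28 at 25 °C in every genotype, beside 0.19 at 16 °C in *sdg8-2*, 0.16 in *sdg26-1*, where it was called, and 0.17 in WT. The transmembrane protein gene AT3G11880 lay between 0.02 and 0.11 and the ARM repeat gene AT5G10200 between 0.91 and 0.99, near the ends of the scale, with no change of 0.1.

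In 4 of the 6 genes with several events, events of the same gene had opposite directions on the PSI scale. All 10 events of other types had the same direction in all genotypes (100%, against 84% of all listed events), and most of them share a gene with another of the 10. In AT3G03350 the ES event was higher at 25 °C in each genotype and both A3 events were lower. The first A3 event had 0.07 and 0.3 in *sdg8-2*, 0.05 and 0.38 in *sdg26-1*, where it was called, and 0.08 and 0.31 in WT, and the second had 0.1 and 0.32 in *sdg8-2*, 0.06 and 0.38 in *sdg26-1*, where it was called, and 0.09 and 0.31 in WT. The A3 events of this gene had changes of similar size in *sdg8-2* and WT, −0.23 in both for the first and −0.22 in both for the second, while its ES event did not. Events of one gene can share exons and reads, so their changes are not independent of each other.

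**Figure D4:**
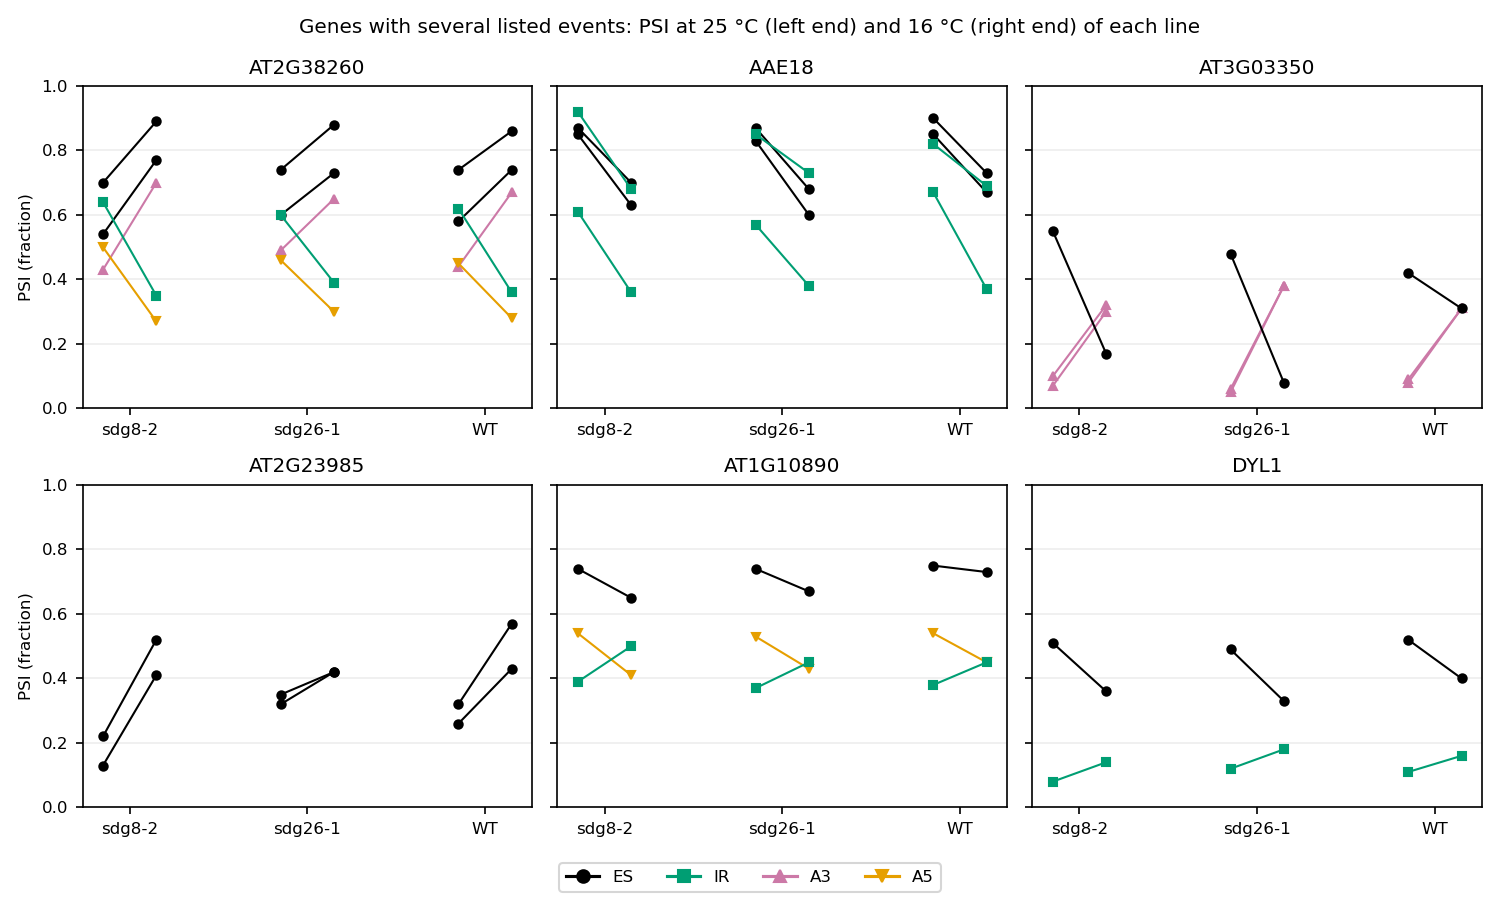
PSI (0 to 1, vertical axis) of every listed event of the 6 genes with several events, in *sdg8-2*, *sdg26-1* and WT, with the value at 25 °C at the left end of each line and that at 16 °C at the right end. All 4 events under *AAE18* were higher at 25 °C, whereas AT2G38260 had 3 lower and 2 higher in each genotype.

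Differences between a mutant and WT at the same temperature were fewer than changes with temperature. All listed events, however, had been chosen by a temperature call in at least 1 genotype, and none by a difference from WT. The list thus favours temperature changes, and the 2 kinds of count cannot show which effect is larger. At 16 °C, *sdg8-2* differed from WT by at least 0.1 in 6 of the 33 exon events (18.2%, against 18.3% of all listed events), and at 25 °C in 6 (18.2%, against 15%). For *sdg26-1* there were 4 at 16 °C (12.1%, against 14.3%) and 5 at 25 °C (15.2%, against 9.52%). Both mutants were set against the same WT values, so these counts are not independent of each other.
Differences toward higher and lower PSI numbered 4 and 2 in *sdg8-2* at 16 °C, against 11.3% and 7.02% of all listed events, and 3 and 3 at 25 °C, against 7.77% and 7.27%. In *sdg26-1* they numbered 0 and 4 at 16 °C, against 6.77% and 7.52%, and 3 and 2 at 25 °C, against 5.01% and 4.51%.
At 16 °C, PSI was higher in *sdg8-2* than in WT for AT4G06701, by 0.19, for *GT-1* and AT5G20450, by 0.11 each, and for AT5G18230, by 0.1. It was lower for AT3G03350, by −0.14, and for AT3G51075, by −0.12. In *sdg26-1* all 4 differences at 16 °C were toward lower PSI: −0.23 in AT3G03350, −0.23 in AT3G51075, −0.17 in the MXE event of AT3G24360 and −0.15 in the second event of AT2G23985.
At 25 °C, PSI was higher in *sdg8-2* than in WT for *KAT5*, by 0.15, AT3G03350, by 0.13, and *BSH*, by 0.1, and differed by −0.13 and −0.1 in the events of AT2G23985 and by −0.11 in AT5G52070. In *sdg26-1* the differences were 0.13 in AT5G58370, 0.11 in AT5G55100 and 0.1 in AT3G51075, and −0.15 in AT5G52070 and −0.12 in *PTB1*. Only AT3G03350 in *sdg8-2* and AT3G51075 in *sdg26-1* passed 0.1 at both temperatures, and in both the sign at 25 °C was opposite to that at 16 °C.

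**Figure D5:**
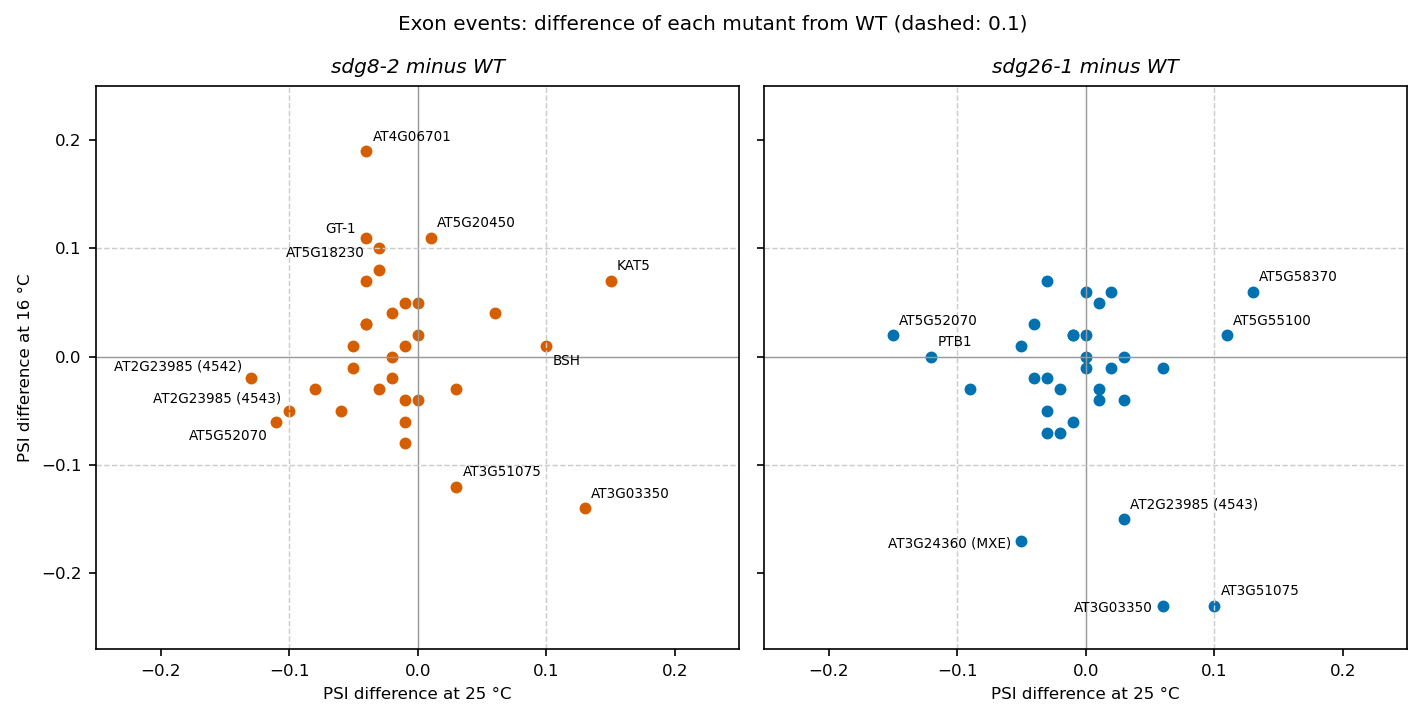
PSI of each mutant minus PSI of WT for the 33 exon events at 25 °C (horizontal axis) and at 16 °C (vertical axis), with *sdg8-2* on the left and *sdg26-1* on the right and dashed lines at 0.1 and −0.1. Most points lie within 0.1 of 0 on both axes, and events with a difference of at least 0.1 at either temperature are named.

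Exon events with a smaller change than in WT were the minority in both mutants. The absolute change was smaller than in WT in 12 of 33 events in *sdg8-2* (36.4%, against 41.6% of all listed events), larger in 19 and equal in 2. In *sdg26-1* it was smaller in 11 (33.3%, against 43.9%), larger in 21 and equal in 1. The genotype in which the event was called moved with these counts. Among the 10 events called in WT, absolute changes had a median of 0.145 in *sdg8-2*, 0.19 in *sdg26-1* and 0.2 in WT, and 7 were smaller in *sdg8-2* and 5 in *sdg26-1*. Among the 13 called in *sdg8-2*, the medians were 0.17 in *sdg8-2*, 0.09 in *sdg26-1* and 0.11 in WT, with 3 smaller in *sdg8-2* than in WT. Among the 18 called in *sdg26-1*, they were 0.09 in *sdg8-2*, 0.16 in *sdg26-1* and 0.115 in WT, with 3 smaller in *sdg26-1* than in WT. In each set the genotype that supplied the call had the largest median. The call and the change come from the same reads, and a difference between the genotypes was not tested. The change differed from that of WT by at least 0.1 in 9 exon events of *sdg8-2* (27.3%, against 26.1%) and 7 of *sdg26-1* (21.2%, against 22.6%), close to the shares of the whole table.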

How the data were processed

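RNA of 18 samples (3 genotypes at 2 temperatures, 3 samples each) was sequenced from stranded libraries. TopHat2, Cufflinks and TAIR10 stand in the submitters' processing notes, and the study estimated PSI with MISO. No version of these is given in the sources used here. In the deposited table, the authors give PSI as a fraction, 1 value with 2 decimals per event and condition from merged replicates, so neither the depth nor an error per value is known. Columns with the authors' own ΔPSI were not used, and their yes or no calls served only as labels. The change was computed as 25 °C minus 16 °C in hundredths of PSI, and changes of at least 0.1 were counted without a test, after the counting had been tested on simulated data. The background is the same count over all 399 listed events.

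The members, role groups and lists were chosen with earlier results of these data known. All 6 values are given for exon events with a change of at least 0.1 in any genotype and for the other events of genes with several events, and the rest are given by range. Alternatives used limits of 0.05 and 0.2, the calls, a log-odds change of at least 0.5, all events of the genes, 1 event per gene, and the list without *AAE18*. Internal exons held by 1 transcript and skipped by another were read from the RefSeq annotation and sequence of TAIR10.1. Exons that overlap an untranslated region were not printed. The time-series, ChIP-seq and flowering experiments were not analysed here. Scripts ran in Python 3.11.15 (matplotlib 3.10.9, pandas 2.3.3, numpy 2.4.6).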

Additional observations from a re-analysis of the deposited data

Results flagged for a closer look

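The ES event of the long noncoding RNA AT3G51075 changed in opposite directions in the mutants and in WT. PSI at 25 °C minus PSI at 16 °C was 0.09 in *sdg8-2* and 0.27 in *sdg26-1*, against −0.06 in WT. Each change comes from a single pooled value per condition, so the difference between the genotypes was not tested.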

How the results depend on the processing

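Of 53 alternatives over 9 counts, 34 gave a count within 1.5 times that reported and 19 moved it further. The smallest change counted mattered most. On warming, the count of 20 exon events in *sdg8-2* became 31 at a limit of 0.05, 8 at 0.2 and 13 by the calls, that of 21 in *sdg26-1* became 6 at 0.2, and that of 19 in WT became 6 at 0.2 and 10 by the calls. For differences from WT, *sdg8-2* had 16 events at 16 °C and 11 at 25 °C with a limit of 0.05, and 0 at both temperatures with 0.2. In *sdg26-1* the counts were 13 at 16 °C and 10 at 25 °C with 0.05, and 2 and 0 with 0.2. The counts of events with a smaller change than in WT also moved when events were taken by call, and the share moved with the genotype of the call: in *sdg8-2*, with 12 of 33 reported, to 7 of 10 called in WT and 3 of 13 called in *sdg8-2*, and in *sdg26-1*, with 11 of 33 reported, to 5 of 10 called in WT, 3 of 18 called in *sdg26-1* and 6 of 13 called in *sdg8-2*. Using all events of the genes, 1 event per gene or the list without *AAE18* moved no count beyond 1.5 times. No paired analysis was possible because the table holds 1 value per condition from merged replicates, and for the same reason no replicate could be left out. The read depth behind each PSI is unknown, so PSI values that differ by a few hundredths cannot be told apart from counting error here.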
